A study of Drosophila melanogaster with 5 samples.

Results

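Wnt ligands, their receptors and the feedback genes of the pathway were examined in cephalic complexes, the larval brain with the attached eye-antennal imaginal discs, of lgl mutant and control Drosophila larvae. 10 genes were listed by name: the ligand genes wg, Wnt2, Wnt4, Wnt5 and Wnt6, the receptor genes fz, fz2 and arr, and the feedback genes nkd and Notum. A probe set counted for a gene where the probe annotation used here gave it that 1 gene symbol alone. By this rule 3 of the 10 genes had a probe set, 1 each, out of 11982 genes named by that annotation. They were Wnt6, nkd and Notum. A gene without a probe set by this rule may still have one on the array. The other 7 genes are not analysed here, so that nothing below says whether they, all 3 listed receptor genes among them, differed between the groups. Of the 197 probe sets called in the comparison described below, 24 did not carry 1 gene symbol, and their genes are not named here.

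mRNA was measured on Affymetrix Drosophila 2.0 arrays, each with RNA pooled from several complexes of 3rd instar larvae. The 3 lgl arrays are of larvae with the null allele pair lgl27S3 / lglE2S31 at day 4, and the 2 FRT82B arrays are of wild-type larvae at day 0. The study places day 0 at the late 3rd instar, so these days are not counted from hatching. Genotype and age differ together, so they cannot be told apart in any comparison here. The labels name the control FRT82B, while the study's own text gives a different control strain. 1 further FRT82B sample, left out by the submitters over quality, is not analysed here.

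Wnt proteins are secreted lipid-modified signals that bind Frizzled receptors together with the co-receptor Arrow. In the absence of signal a destruction complex of Axin, Apc and kinases degrades the beta-catenin Armadillo, and with signal Armadillo enters the nucleus and acts with the factor Pangolin on target genes. In fly imaginal discs the founding Wnt, Wingless, patterns and grows the tissue, and among its targets are genes that limit the pathway itself. nkd encodes Naked cuticle, which binds Dishevelled and acts inside the cell, and Notum encodes a secreted enzyme that removes the lipid from Wnt proteins.

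None of the 3 measured genes passed the test for a difference between lgl and FRT82B tissue. Of the 3 probe sets 0 were called (an adjusted p under 0.05 in limma, with an absolute log2 change of at least 1), and 0 had an unadjusted p under 0.05. Over all probe sets 1.05% were called, 197 of 18769, and 18.4% had an unadjusted p under 0.05. The log2 changes ran from -0.18 for Wnt6 to 0.23 for Notum, each as lgl minus FRT82B. Against that background a count of 0 among 3 is no result about these genes as a set.

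Wnt6, a ligand gene of the same chromosome arm as wg (2L), was dim on every array. Its probe set (1627979_at) had log2 expression values of 3.17, 3.29 and 3.40 on lgl arrays 1, 2 and 3, against 3.30 and 3.65 on FRT82B arrays 1 and 2. The groups overlapped, and the highest of the 5 values was that of FRT82B array 2. All 5 values lay under the median log2 value of their own array, which was 3.79 to 3.82 on the lgl arrays and 3.84 and 3.86 on the FRT82B arrays. The means were 3.29 ± 0.12 in lgl (SD, n = 3) and 3.47 ± 0.25 in FRT82B (SD, n = 2). The difference, lgl minus FRT82B, was -0.18 (SE 0.14, 95% interval -0.55 to 0.18, adjusted p = 0.513 in limma). The normalisation compresses differences this close to the background, so the interval holds for the measured scale only. In whole tissue, fewer cells of a type and less RNA per cell cannot be told apart, here and in all values below.

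nkd, the feedback gene that acts inside the cell, was the only one of the 3 genes above the array median on all 5 arrays. Its probe set (1630361_at) read 6.68, 6.89 and 6.86 on lgl arrays 1, 2 and 3, against 6.05 and 7.44 on FRT82B arrays 1 and 2. The lgl arrays lay close together, and all of them fell between the FRT82B arrays, as they did on 14.1% of all probe sets. The means were 6.81 ± 0.11 in lgl (SD, n = 3) and 6.75 ± 0.98 in FRT82B (SD, n = 2). lgl minus FRT82B came to 0.06 on the log2 scale (SE 0.43, adjusted p = 0.949 in limma), with a 95% interval of -1.07 to 1.20, or 0.475 to 2.30 times the FRT82B level. This interval still holds a change of 1 in either direction, so that for nkd a change of that size was not excluded by these arrays.

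The spread of nkd lay in the control arrays. FRT82B array 2 read 1.39 above FRT82B array 1 for nkd, a gap of at least 1 that 994 of the 18769 probe sets (5.30%) shared. The lgl mean was 0.76 above FRT82B array 1 and 0.63 below FRT82B array 2. With FRT82B array 2 left out the adjusted p of nkd was 0.0373 at a log2 change of 0.76, which is under the fold threshold, and with FRT82B array 1 left out it was 0.0945 at -0.63. The direction for nkd thus turned with the control array used. Each of these fits has 1 control array, which is then assumed to vary like the lgl arrays.

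Notum, the gene of the secreted feedback enzyme, read close to the median of its arrays. The probe set (1637977_a_at) had values of 4.29, 4.00 and 4.00 on lgl arrays 1, 2 and 3, against 4.01 and 3.73 on FRT82B arrays 1 and 2. lgl array 1 was the highest and FRT82B array 2 the lowest, but FRT82B array 1 lay just above lgl arrays 2 and 3, so the groups overlapped. The means were 4.10 ± 0.17 in lgl (SD, n = 3) and 3.87 ± 0.20 in FRT82B (SD, n = 2). The difference was 0.23 (SE 0.14, 95% interval -0.15 to 0.61, adjusted p = 0.455 in limma), or 0.899 to 1.52 times the FRT82B level. The values of lgl arrays 2 and 3 were the same in all deposited digits. Such equal values between arrays occurred on 36.1% of all probe sets, and on 56.7% of those whose mean lay at or under the median of all, against 15.5% of the brighter ones.

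**Figure D1:**
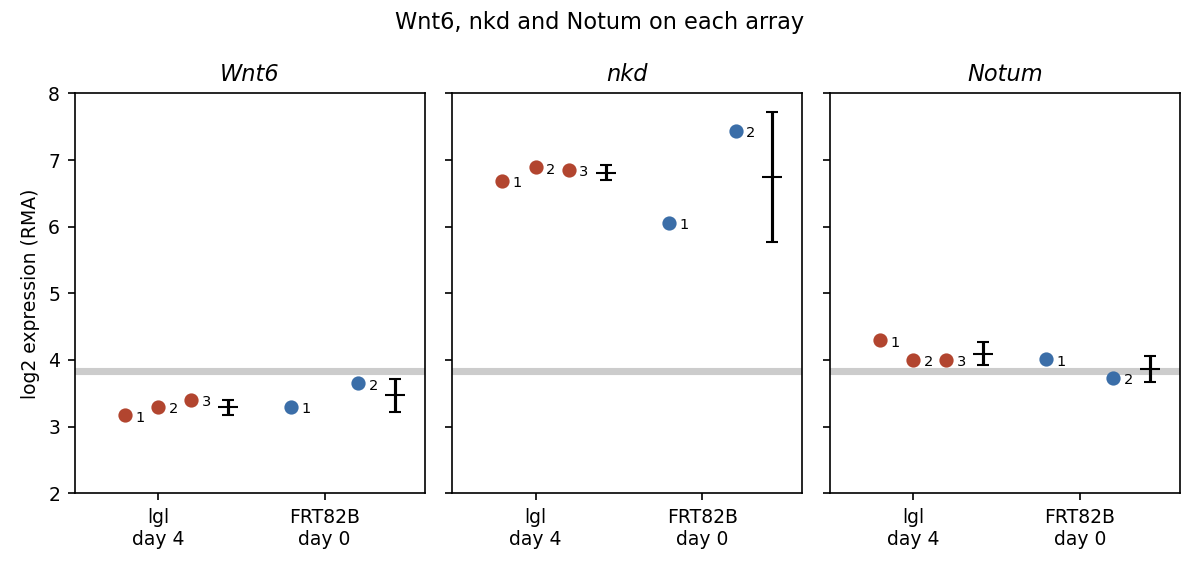
Log2 expression (y axis) of Wnt6, nkd and Notum on the 3 lgl arrays and the 2 FRT82B arrays, with the array number beside each point, the mean and SD of each group in black, and the range of the array medians as a grey band. The groups overlap in every panel, and the 2 FRT82B arrays lie on either side of the lgl arrays for nkd.

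On 34.9% of all probe sets the lgl and FRT82B arrays did not overlap, and this held for 0 of the 3 genes. The intervals of Wnt6 and Notum lay within a log2 change of 1 in both directions, as did those of 15516 of the 18769 probe sets. For Wnt6 and Notum the interval thus bounds the measured change, on the compressed scale of values near the array median, while that of nkd does not.

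The arrays were checked against their labels. l(2)gl, the gene that the lgl alleles disrupt, read 2.44, 2.40 and 2.24 on lgl arrays 1, 2 and 3, against 7.74 and 6.74 on the FRT82B arrays. Correlations across probe sets were 0.995 to 0.997 between lgl arrays and 0.981 between the FRT82B arrays, and between lgl and FRT82B arrays they were 0.970 to 0.972 for FRT82B array 1 and 0.982 to 0.984 for FRT82B array 2. All 8 listed genes of the eye-antennal disc were measured, such as toy, ey, dac and eya. Their mean log2 level was 6.71 to 7.07 on the lgl arrays, against 6.40 on FRT82B array 1 and 6.98 on FRT82B array 2, and 0 of the 8 were called. The mean of the list thus differed between the control arrays in the same direction as nkd did. toy went the other way, with 8.97 on FRT82B array 1 and 8.22 on FRT82B array 2. The part of disc tissue in the nkd values was not tested.

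The remaining genes of the pathway were taken from lists arranged by role. Of 47 listed genes 31 had a probe set with 1 gene symbol, and where a gene had several the brightest on average stood for it. No gene of these 31 was called by limma, and 8 had an unadjusted p under 0.05, of which 5 were higher and 3 lower in lgl. That is 25.8% of them, beside 18.4% of all probe sets and 22.0% of all named genes. The median log2 change of the 31 genes was 0.10, beside -0.03 over all named genes. In 15 of the 31 (48.4%) the lgl and FRT82B arrays did not overlap, beside 38.7% of all named genes, with lgl higher in 10 and lower in 5.

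**Figure D2:**
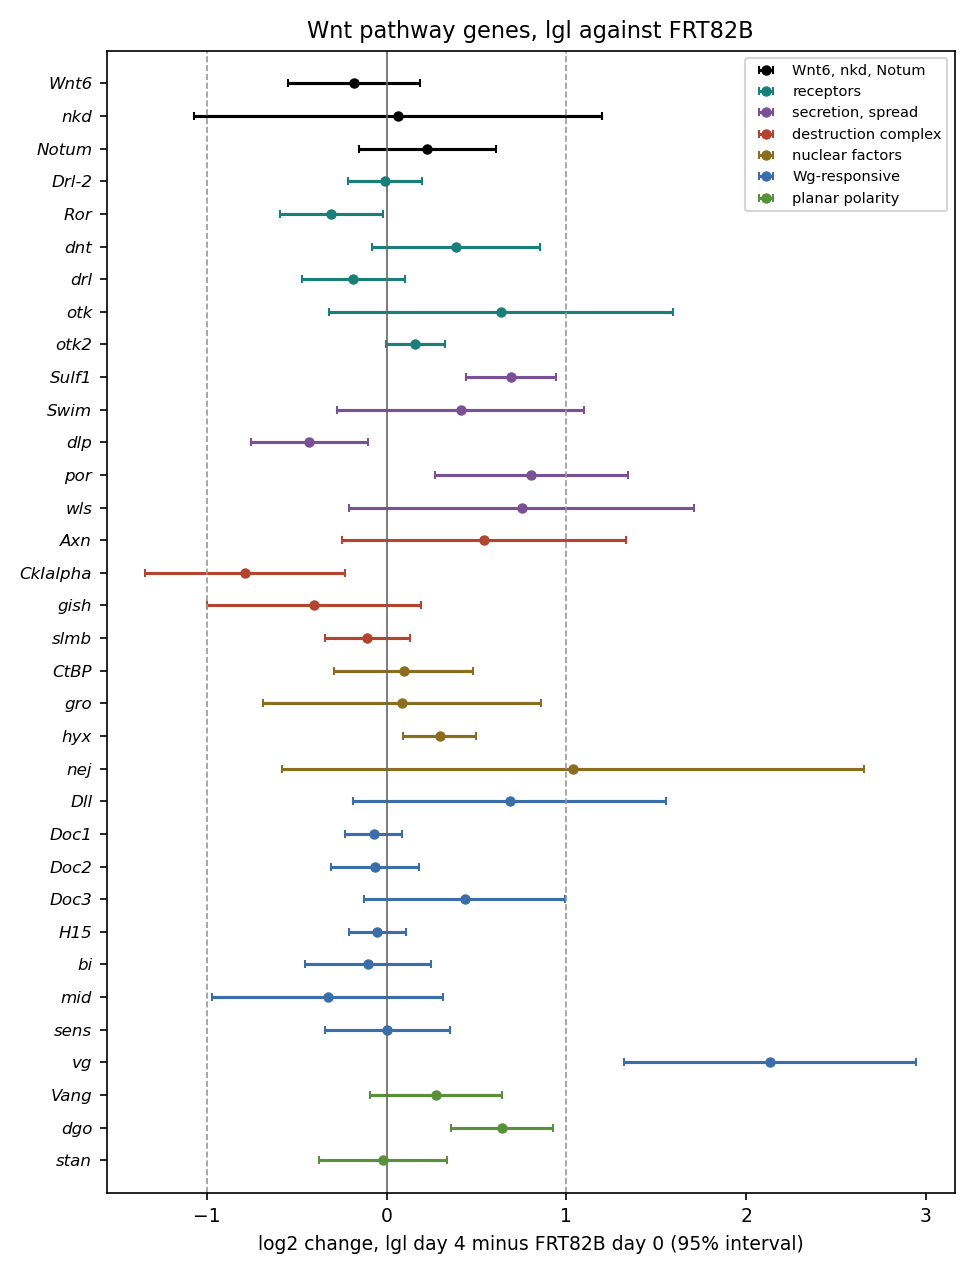
Log2 change, lgl day 4 minus FRT82B day 0, with its 95% interval from limma, for Wnt6, nkd and Notum and 31 other pathway genes in order of role, with dashed lines at -1 and 1. The interval of vg alone lies wholly beyond 1, while that of nkd crosses both dashed lines.

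Among 6 other Wnt receptor genes, changes ran from -0.31 to 0.63. otk, which encodes a transmembrane pseudokinase able to bind Wnt ligands, read 9.33, 9.42 and 9.30 in lgl, against 8.13 and 9.30 in FRT82B (log2 change 0.63, SE 0.36, adjusted p = 0.427). The second FRT82B array was level with the lgl arrays, so that the difference rests on the first. dnt, a Ryk-family receptor gene like drl, read 7.54, 7.43 and 7.47 in lgl, against 6.82 and 7.36 in FRT82B (0.39, SE 0.18, adjusted p = 0.353). drl itself, the receptor of Wnt5 in axon guidance, and the receptor kinase gene Ror were chosen for mention after their values were seen. drl read 9.08, 9.23 and 8.96 in lgl, against 9.20 and 9.35 in FRT82B, and Ror read 8.69, 8.73 and 8.57 against 9.10 and 8.84.

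The 5 measured genes of ligand secretion and spread had the highest median log2 change of the lists, 0.69, with 4 above 0 and 1 below. With a single control array the median came to 0.83 (FRT82B array 1) or 0.16 (FRT82B array 2). por encodes Porcupine, the acyltransferase that adds the lipid to Wnt proteins, and wls encodes Wntless, the carrier that takes them to the cell surface. por read 5.79, 5.68 and 5.51 in lgl, against 4.56 and 5.14 in FRT82B (log2 change 0.80, SE 0.20, adjusted p = 0.148). wls read 9.82, 9.81 and 9.70 in lgl, against 8.44 and 9.61 in FRT82B (0.75, SE 0.36, adjusted p = 0.377). All lgl arrays were above both FRT82B arrays for either gene, by little where wls was set against FRT82B array 2. Sulf1, a heparan sulphate 6-O-endosulfatase gene named after its values were seen, had the lowest adjusted p of the 31 genes. It read 7.25, 7.07 and 7.31 in lgl, against 6.49 and 6.55 in FRT82B (0.69, SE 0.09, adjusted p = 0.0554). The gene below 0 was dlp, a glypican gene also named after its values were seen, with 7.70, 7.73 and 7.78 in lgl against 7.99 and 8.35 in FRT82B (-0.43, SE 0.12, adjusted p = 0.182).

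4 genes of the list for Dishevelled and the destruction complex were measured, which were Axn, CkIalpha, gish and slmb. Their median log2 change was -0.26 (-0.41 against FRT82B array 1 alone and -0.10 against FRT82B array 2 alone). That median of -0.26 lies between the changes of gish (-0.40) and slmb (-0.11). CkIalpha, whose kinase primes Armadillo for degradation, read 8.11, 8.67 and 8.57 in lgl, against 9.38 and 9.09 in FRT82B (log2 change -0.79, SE 0.21, adjusted p = 0.162). Axn, the scaffold of the complex, read 8.76, 8.65 and 8.47 in lgl, against 7.62 and 8.55 in FRT82B (0.54, SE 0.30, adjusted p = 0.421). The lgl arrays were all below the FRT82B arrays for CkIalpha, and overlapped with FRT82B array 2 for Axn.

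Among 4 nuclear factors, nej and hyx had the largest changes. nej encodes the acetyltransferase CBP, and hyx a homologue of parafibromin that binds Armadillo. nej read 6.86, 7.13 and 7.04 in lgl, against 4.98 and 6.97 in FRT82B (log2 change 1.04, SE 0.61, adjusted p = 0.437), and its other probe set stayed between 3.02 and 3.44 on all 5 arrays. Its FRT82B arrays lay 1.99 apart, more than for any other of the 31 genes. hyx read 8.79, 8.86 and 8.72 in lgl, against 8.43 and 8.56 in FRT82B (0.30, SE 0.08, adjusted p = 0.158), a small step that all arrays showed.

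Of 11 listed genes known to respond to Wingless in imaginal discs 9 were measured, while fz3 and hth are not analysed here. The median log2 change of the 9 was -0.05 (0.07 against FRT82B array 1 alone and -0.07 against FRT82B array 2 alone). That median of -0.05 is the change of H15, which lay under the array median on all 5 arrays, as did Doc2 and sens. Doc3 and mid lay under it on 3 arrays each, and Doc1 read 3.89 to 4.01. The median thus says little about the brighter genes of this list. Among these 9 the change furthest from 0 was that of vg, a selector gene of the wing that Wingless signalling activates in the wing disc. Its brighter probe set (1623484_at) read 6.90, 6.88 and 6.71 in lgl, against 4.21 and 5.18 in FRT82B, and its other probe set (1641470_s_at) read 5.24, 5.32 and 5.41 against 4.67 and 4.30. On both the lgl arrays lay above the FRT82B arrays without overlap. The log2 change of the brighter probe set was 2.13 (SE 0.31, 95% interval 1.32 to 2.95), or 4.38 times the FRT82B level, and that of the other 0.83 (SE 0.13). Neither passed the adjustment over all probe sets (limma adjusted p = 0.0596 and 0.0705).

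vg stood near the threshold, and its call changed with the fit. The brighter probe set was called with quantile normalisation again (adjusted p = 0.0448), median centring (0.0476), brighter probe sets only (0.0231), an intensity trend with a robust prior (0.0480) and without FRT82B array 2 (0.0165). It was not called with array weights (adjusted p = 0.129), without FRT82B array 1 (0.0505), without any 1 of the lgl arrays (0.216 to 0.285) or with the replicate number as a block (0.336). Of 5 other listed genes of the wing and leg discs, ap, tsh, Antp, nub and pdm2, the changes of 4 were below 0 and that of ap was above. Their mean log2 level was 5.28 to 5.45 on the lgl arrays, against 5.98 and 6.26 on the FRT82B arrays. 0 of them were called.

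Dll, an appendage gene expressed in the antennal disc and activated by Wingless in leg and wing discs, gave different answers by probe set. The brightest (1630237_a_at) read 6.21, 6.44 and 6.51 in lgl, against 5.19 and 6.21 in FRT82B (log2 change 0.69, SE 0.33, adjusted p = 0.375). A further one (1636088_at) read 6.18, 5.87 and 6.01 against 4.32 and 5.17, without overlap (1.27, SE 0.28, adjusted p = 0.119). The dimmest (1625771_at) stayed between 3.28 and 3.41 on all arrays. The other 7 measured genes of this list, which were bi, Doc1, Doc2, Doc3, H15, mid and sens, had changes between -0.33 and 0.43.

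**Figure D3:**
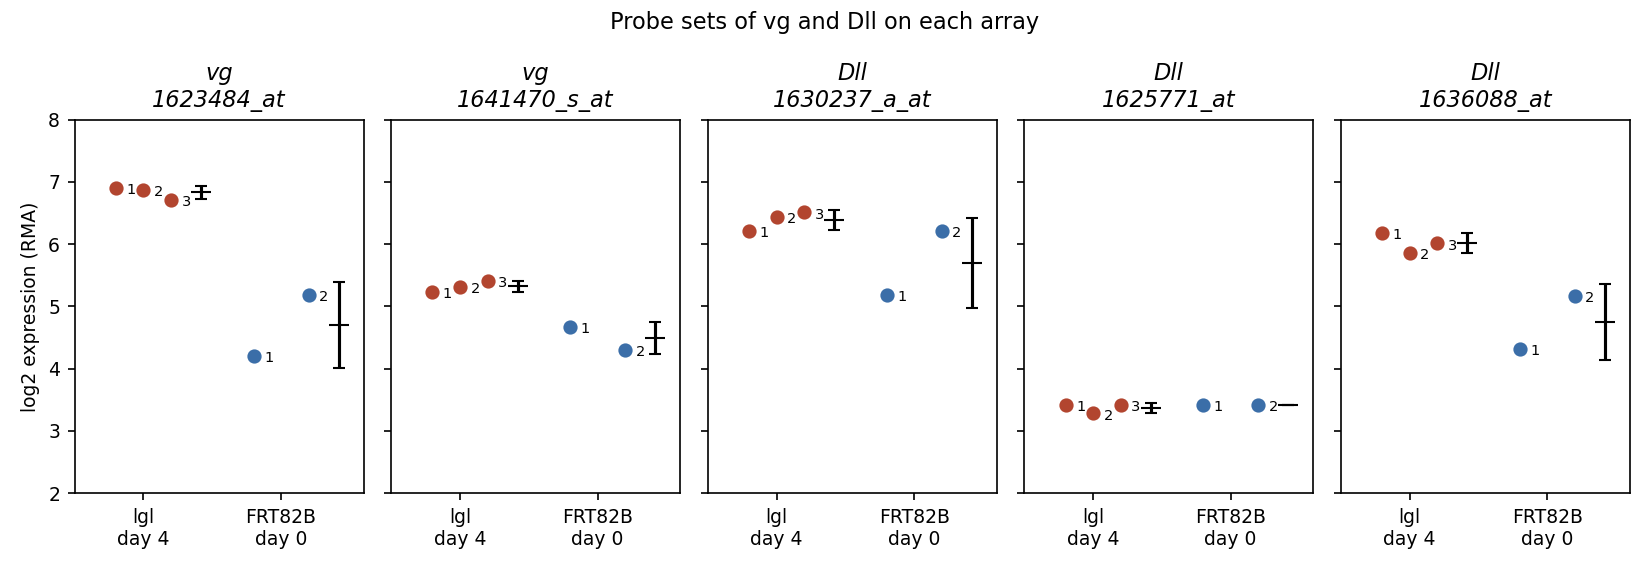
Log2 expression (y axis) of each probe set of vg and Dll on the 3 lgl and 2 FRT82B arrays, with array numbers beside the points and the mean and SD of each group in black. The lgl arrays lie above the FRT82B arrays on both probe sets of vg, and on 1 of 3 probe sets of Dll.

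Frizzled also acts in planar cell polarity, the alignment of cells within an epithelium, and 3 core genes of that system were measured. dgo, which encodes the ankyrin repeat protein Diego, read 4.18, 4.46 and 4.24 in lgl, against 3.69 and 3.62 in FRT82B (log2 change 0.64, SE 0.11, adjusted p = 0.0751). Vang, a transmembrane component, read 8.68, 8.74 and 8.61 in lgl, against 8.20 and 8.60 in FRT82B (0.27, SE 0.14, adjusted p = 0.396). stan, which encodes the cadherin Flamingo, had a change of -0.02.

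Most of the pathway genes differed between the control arrays in the same direction as nkd. FRT82B array 2 was above FRT82B array 1 in 25 of the 31 genes and below it in 5, with a median difference of 0.35, beside -0.02 over all named genes. The lgl mean had a median difference of 0.31 from FRT82B array 1 and of -0.01 from FRT82B array 2 over the 31 genes, and both values share the lgl arrays. With FRT82B array 2 left out limma called 7 of the 31 genes higher (Axn, Dll, nej, otk, por, vg and wls), beside 4.20% of all probe sets called higher and 6.96% called in either direction. With FRT82B array 1 left out it called 0 of the 31, beside 0.378% of all probe sets. The 31 genes were taken at their brightest probe set, while these shares are of all probe sets, dim ones included. For Wnt6, nkd and Notum the changes were -0.01, 0.76 and 0.09 against FRT82B array 1 alone, and -0.36, -0.63 and 0.36 against FRT82B array 2 alone.

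**Figure D4:**
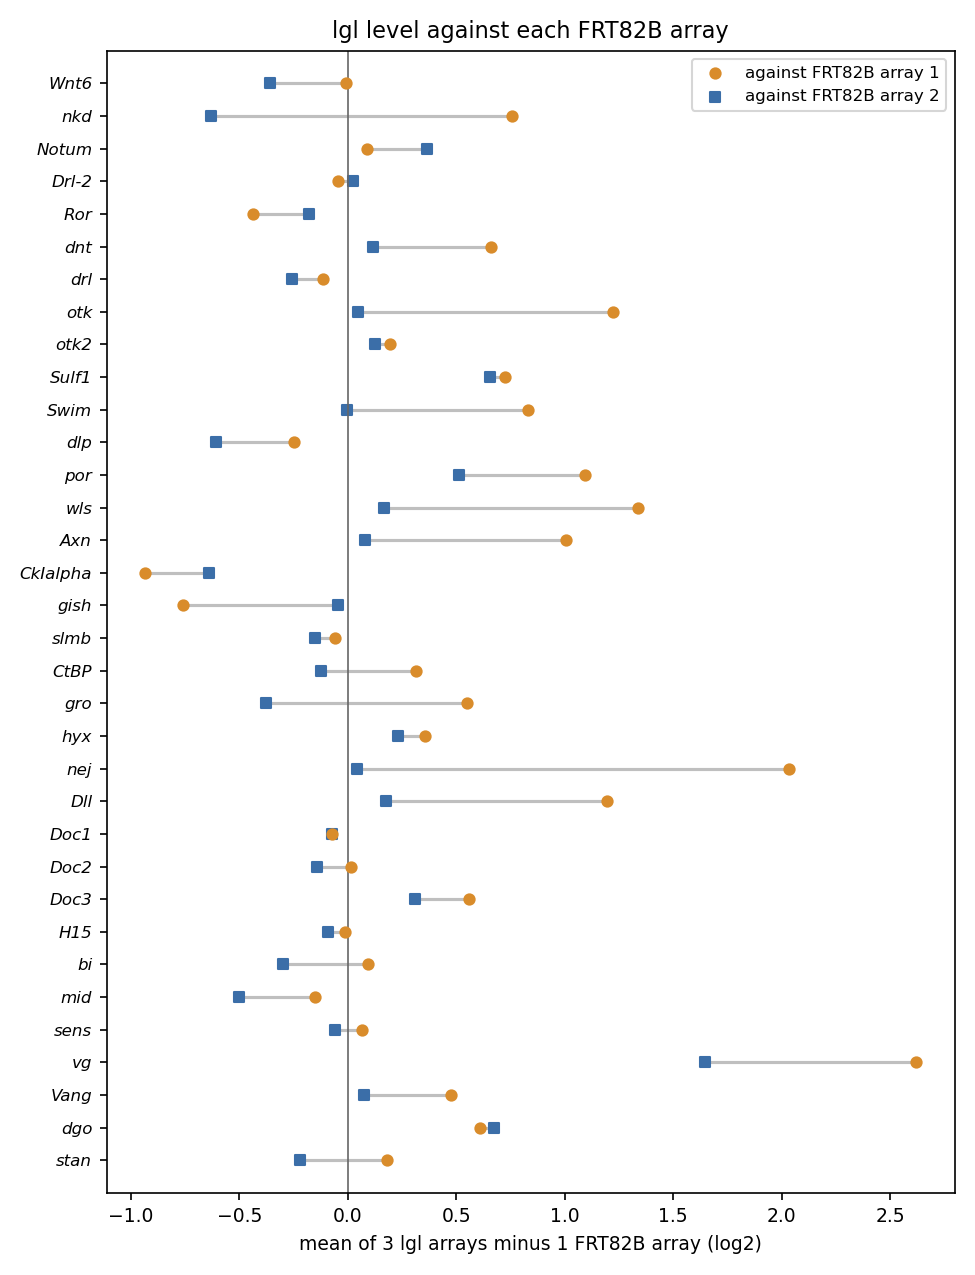
Mean of the 3 lgl arrays minus FRT82B array 1 (circles) or minus FRT82B array 2 (squares), in log2 units, for Wnt6, nkd, Notum and 31 other pathway genes. The circles lie right of the squares for most genes, and for nkd they lie on opposite sides of 0, at 0.76 and -0.63.

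The mean levels of lists of markers of other tissues and cell types differed between the groups. The 5 neuroblast genes, all measured, had a mean log2 level of 9.23 to 9.47 on the lgl arrays, against 7.89 and 8.23 on the FRT82B arrays, and the 5 haemocyte genes, all measured, 5.36 to 6.47, against 4.78 and 4.99. 3 of 4 trachea genes were measured and were at 6.74 to 6.85 in lgl, against 4.41 and 5.71 in FRT82B. 5 of 6 neuron genes were at 7.75 to 7.92 in lgl, against 8.32 and 8.55 in FRT82B, 4 of 5 glia genes at 8.21 to 8.31 against 8.67 and 8.69, and 4 of 5 ring gland genes at 3.15 to 3.69 against 6.19 and 6.54. 3 of 5 muscle genes were at 3.63 to 4.12 in lgl, against 5.43 and 4.42 in FRT82B, and 3 of 4 fat body genes at 8.26 to 10.4 against 7.37 and 8.19. In the neuron, glia, haemocyte, trachea and fat body lists 1 measured gene each went against the direction of its list. In the glia list it was repo, named after its values were seen. It was higher in lgl without overlap (log2 change 0.78, SE 0.26, adjusted p = 0.227 in limma). The other 3 measured glia genes had changes of -2.01 (Gs2), -0.26 (wrapper) and -0.14 (moody). The part of these lists in the values of the pathway genes was not tested.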

How the data were processed

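The deposited values are log2 expression per probe set, made by the authors with RMA (background correction, normalisation between arrays and a summary over probes), and were used unchanged. Versions of the authors' software are not given in the sources used here. Because RMA aligns the distributions of the arrays, it hides a shift common to most mRNAs, and it compresses differences near background. No counts or detection calls were used, and the precision is limited by the number of arrays.

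After removal of 183 control probe sets, 18769 were tested. Of these 13647 had 1 gene symbol, 13544 of them matched to a current gene through gene identifiers, 402 had several symbols, and 4720 had none here. Groups were taken from the sample titles, which call the arrays biological replicates. lgl and FRT82B arrays were compared with limma 3.58.1 (lmFit, eBayes; R 4.3.3) with Benjamini-Hochberg adjustment over all 18769 probe sets. Intervals are limma's 95% intervals without adjustment for the number of probe sets. The procedure was tested on simulated data.

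The genes and lists were chosen with earlier results of these data known. Genes named by rule are the 10 listed, l(2)gl, any called gene of the pathway lists and the 2 with the largest change in each list. drl, Ror, Sulf1, dlp and repo were named after their values were seen. Any other genes named are from the pathway or marker lists and were not picked by this rule. Alternatives were leaving out each array, array weights, a block for the replicate number, median centring, quantile normalisation again, a trended and robust prior, brighter probe sets only, the call at the adjusted p alone, treat, and a mean over each gene's probe sets. No sequences are shown, since no table of them was used here.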

Additional observations from a re-analysis of the deposited data

How the results depend on the processing

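Wnt6, nkd and Notum were not called under any alternative run. The log2 change of nkd was -0.0270 with quantile normalisation again and ran from -0.63 to 0.76 when 1 array was left out, so that its sign was not stable, while Wnt6 stayed below 0 (-0.36 to -0.01) and Notum above 0 (0.09 to 0.36) when 1 array was left out. Wnt6 gave no value with brighter probe sets only. Of the other pathway genes limma called 1, vg, with quantile normalisation again, 1 with median centring, 1 with brighter probe sets only, 1 with a trended and robust prior, 1 with a mean over each gene's probe sets, and 0 to 7 when 1 array was left out. Over all probe sets it called 395 with brighter probe sets only, 12 with array weights, 305 at the adjusted p alone, 3 with treat against a log2 change of 1, and 0 to 1306 when 1 array was left out (0 without any 1 lgl array, where 538 to 584 passed the fold threshold at an unadjusted p under 0.05, 71 without FRT82B array 1 and 1306 without FRT82B array 2). The cause was not tested. With the replicate number as a block it called 0 probe sets, and 616 passed the fold threshold at an unadjusted p under 0.05. The shared numbers are not known to pair the arrays: deviations from the group means correlated at 0.03 for number 1 and 0.07 for number 2. Dim probe sets, Wnt6 among them, limit what can be seen.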
